A study of Homo sapiens with 12 samples.

Results

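The genes described here are 53 genes of the lysosome and of autophagy, chosen by symbol from a list of lysosomal enzymes, membrane proteins, proton pump subunits, autophagy proteins and the transcription factors TFEB, TFE3 and MITF. All 53 were found among the 58278 genes listed, and all of them were among the 24342 genes expressed highly enough to be tested. They were measured by RNA sequencing in HK2 cells, an immortalized human cell line derived from the proximal tubule of the kidney, in 12 libraries that form 6 groups of 2 biological replicates. Ctrl cells were untreated, and TN cells received tumour necrosis factor (TNF-α) at 5 ng/mL for 3 h. The other 4 groups received the same TNF-α and a short-chain fatty acid (SCFA) for 24 h. Propionate (15 mM) or butyrate (3 mM) was given before TNF-α in PRTN and BUTN, and after TNF-α in TNPR and TNBU. A general treatment text in the labels names thapsigargin and JQ1, but the label of every treated library names TNF-α and, where one was given, the SCFA. Neither an SCFA without TNF-α nor TNF-α followed by 24 h of culture without an SCFA was analysed here, so in TNPR and TNBU the SCFA and the later collection cannot be told apart.

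The lysosome is the acidic compartment in which cells break down proteins, sugars and lipids. Its membrane carries the LAMP proteins and a proton pump, the V-ATPase, and its lumen holds soluble hydrolases, most of which are tagged with mannose 6-phosphate on their way there. In autophagy, part of the cytoplasm is enclosed in a membrane coated with proteins of the LC3 family, cargo is held there by receptors such as SQSTM1 (p62), and the vesicle then fuses with a lysosome. TFEB, TFE3 and MITF are related factors that can bind CLEAR elements, short palindromic sequences found near the start of many lysosomal genes. Proximal tubular cells take up much filtered protein by endocytosis and degrade it in lysosomes. Propionate and butyrate, made by gut bacteria, are known inhibitors of histone deacetylases.

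Expected counts summed to between 27269986 and 33851130 per library, and 3 counts corresponded to 0.0867 to 0.112 CPM (the count divided by library size and TMM factor). The 5 epithelial markers summed to between 1120 and 1210 CPM in Ctrl and TN, 2230 and 2320 CPM in PRTN and BUTN, and 1730 and 1990 CPM in TNPR and TNBU, with KRT8 between 701 and 1437 CPM and KRT18 between 354 and 728 CPM over all libraries. The 8 proximal tubule markers summed to between 184 and 228 CPM in Ctrl and TN and between 73.9 and 95.5 CPM in the SCFA groups. They were less uniform, since SLC22A6 was at 0 in all libraries and ANPEP and LRP2 were at or near 0 in Ctrl and TN. GGT1, which made up most of the sum, stood between 179 and 221 CPM in Ctrl and TN and between 60.0 and 74.0 CPM in the SCFA groups. Over the 8 leukocyte and macrophage markers, 7 averaged under 1 CPM, and the summed level was 1.27 to 1.44 CPM in Ctrl, 1.19 to 1.38 in TN, 5.32 to 6.57 in PRTN, 5.04 to 6.70 in BUTN, 3.32 to 4.35 in TNPR and 3.82 to 5.02 in TNBU. The 7 fibroblast and endothelial markers summed to between 10.6 and 13.2 CPM in Ctrl and TN and between 39.8 and 70.4 CPM in the SCFA groups, most of it from LUM. The part of these markers in the results below was not tested. In bulk RNA, fewer cells of a type and less RNA per cell cannot be told apart.

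Together the 53 genes took 7191 to 7676 CPM in the Ctrl and TN libraries and 7893 to 8287 CPM in the SCFA libraries. PSAP alone, the precursor of the saposins that help hydrolases reach their lipid substrates, accounted for most of that gap, since without it the sums were 6008 to 6347 CPM in Ctrl and TN and 6076 to 6367 CPM in the SCFA libraries. Compared per length of the canonical transcript, the highest levels in TN were those of PSAP (457 CPM per kb), the carboxypeptidase CTSZ (429), the tetraspanin CD63 (395), the aspartic protease CTSD (274) and the dipeptidyl peptidase CTSC (153). LAMP3 was the lowest of the 53 on this scale, at 0.0624 CPM per kb in TN, and TFEB stood at 3.81 CPM per kb beside 43.5 for TFE3 and 14.2 for MITF.

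Promoter windows from 250 bases before to 50 bases after an annotated start (RefSeq, GRCh38.p14) were matched by symbol for 39 of the 53 genes, which had 57 windows. They were searched on both strands for the CLEAR palindrome, which is TCACGTGA with a G before and a C after it, for TCACGTGA itself, and for the E-box core CACGTG, which lies inside both. The palindrome was found in 2 windows (3.51%, against 0.353% of all 35116 windows), TCACGTGA in 5 (8.77% against 0.98%) and CACGTG in 10 (17.5% against 7.26%), each longer match being counted again among the shorter ones. The windows of GAA and NEU1, of ATP6V0D1, MCOLN1 and LAMP1, and of ARSB are shown because they hold a match while their genes rose, were not called and fell, respectively, in the comparisons with TN. Each is given 5′ to 3′ on the strand of its gene with the matches in capitals.
GAA (chr17:80101473-80101562, + strand): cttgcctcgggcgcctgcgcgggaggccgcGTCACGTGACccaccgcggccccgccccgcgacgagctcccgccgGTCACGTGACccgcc
NEU1 (chr6:31862912-31862977, - strand): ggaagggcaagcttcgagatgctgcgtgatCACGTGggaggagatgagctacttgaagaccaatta
ATP6V0D1 (chr16:67481180-67481247, - strand): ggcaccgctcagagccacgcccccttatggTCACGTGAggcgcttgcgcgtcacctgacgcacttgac
MCOLN1 (chr19:7522552-7522623, + strand): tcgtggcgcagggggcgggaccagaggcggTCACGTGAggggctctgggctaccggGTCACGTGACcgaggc
LAMP1 (chr13:113297017-113297238, + strand): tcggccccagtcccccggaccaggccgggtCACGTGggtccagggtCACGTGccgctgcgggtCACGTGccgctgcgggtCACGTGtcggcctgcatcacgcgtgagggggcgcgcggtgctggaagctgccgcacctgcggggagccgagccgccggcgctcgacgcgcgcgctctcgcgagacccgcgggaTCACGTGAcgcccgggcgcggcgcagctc
ARSB (chr5:78986083-78986148, - strand): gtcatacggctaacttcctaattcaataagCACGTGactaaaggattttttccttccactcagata
The 2 full palindromes of GAA began 76 and 31 bases before the start, and that of MCOLN1 began 14 bases before it. LAMP1 had 2 matches to TCACGTGA, of which the one at the start itself runs past the stretch shown, and 4 further E-box cores. A match to these letters is a description of the window and says nothing of whether a factor was bound there.

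The first comparison asked what TNF-α alone did to these genes. In TN vs Ctrl, 0 of the 53 genes were called higher and 0 lower by limma-voom at a fold change over 1.5 with an adjusted p under 0.05, where 0.764% and 0.534% of all genes tested were called higher and lower. The counts were also 0 with edgeR and with DESeq2. An unadjusted p under 0.05 (limma-voom) was found for 12 of the 53 genes, beside 4140 of the 24342 genes tested. By the adjusted p alone, without the fold threshold, 2 of the 53 genes were higher, OPTN and MAP1LC3B, where 3.51% of all genes differed.

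OPTN, an autophagy receptor that binds ubiquitin and LC3, stood at 104 and 103 CPM in Ctrl and at 139 and 139.6 CPM in TN. Its groups did not overlap, as was so for 35 of the 53 genes in this comparison, a share not counted over all genes. The fold was 1.34 (log2 0.42, SE 0.053, adjusted p = 0.000908, limma-voom). MAP1LC3B, which encodes the LC3 protein attached to autophagosome membranes, stood at 119 and 123 CPM in Ctrl and at 172 and 155 CPM in TN. The rise was 1.35-fold (log2 0.43, SE 0.085, adjusted p = 0.0153, limma-voom), but its adjusted p was 0.151 without Ctrl replicate 1, 0.0831 without Ctrl replicate 2, 0.162 without TN replicate 1 and 0.0924 in a fit of only these groups. RSEM divides reads between MAP1LC3B and its near-identical copy MAP1LC3B2, so its level is uncertain to that extent. The next genes by adjusted p were SMPD1, the acid sphingomyelinase, at log2 -0.44 (adjusted p = 0.062), SQSTM1 at 0.23 (adjusted p = 0.0733) and ULK1, the kinase that starts autophagy, at -0.33 (adjusted p = 0.0806), all by limma-voom. Over the 53 genes the log2 fold change ran from -0.44 to 0.43 with a median of -0.03, beside -0.01 over all genes tested.

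The next comparisons set each SCFA group against TN. All 4 use the same pair of TN libraries, so their values are given side by side and are not independent of one another. Relative to TN, 12 of the 53 genes were higher and 9 lower in PRTN, 13 higher and 9 lower in BUTN, 13 higher and 8 lower in TNPR, and 12 higher and 8 lower in TNBU (limma-voom). The shares of the 53 genes called higher were 22.6%, 24.5%, 24.5% and 22.6% in PRTN, BUTN, TNPR and TNBU, where 23.9%, 23.1%, 24.9% and 25% of all genes tested were higher. The shares called lower were 17.0%, 17.0%, 15.1% and 15.1%, where 16.7%, 14.8%, 16.9% and 16.5% of all genes were lower. With the fold threshold, the counts were thus near the background in both directions, as the plot of shares called shows. They are no result about lysosomal or autophagy genes as a class. By the adjusted p alone, without the fold threshold, 41, 37, 40 and 36 of the 53 genes differed from TN, where 56.4%, 55.1%, 57.7% and 57.4% of all genes did. These counts are a larger share of the 53 genes than of all genes in each group, a gap that was not tested. In PRTN vs TN the median SE over all genes was 0.209. The SE of the 53 genes ran from 0.051 (FUCA2) to 0.193 (CTSK), with LAMP3 apart at 0.425. The part of this difference in precision in the gap was not tested. The median log2 fold change over the 53 genes was 0.17, 0.08, 0.12 and 0.10, beside 0.09, 0.08, 0.12 and 0.09 over all genes. With library size alone as the scaling, the counts became 17 higher and 8 lower in PRTN, 15 higher and 7 lower in BUTN, 18 higher and 7 lower in TNPR, and 17 higher and 7 lower in TNBU. Under that scaling 27.9%, 27%, 29.7% and 30.1% of all genes were higher and 12.8%, 10.9%, 12.9% and 11.7% lower, and the median of all genes moved to 0.24, 0.23, 0.29 and 0.29.

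**Figure D1:**
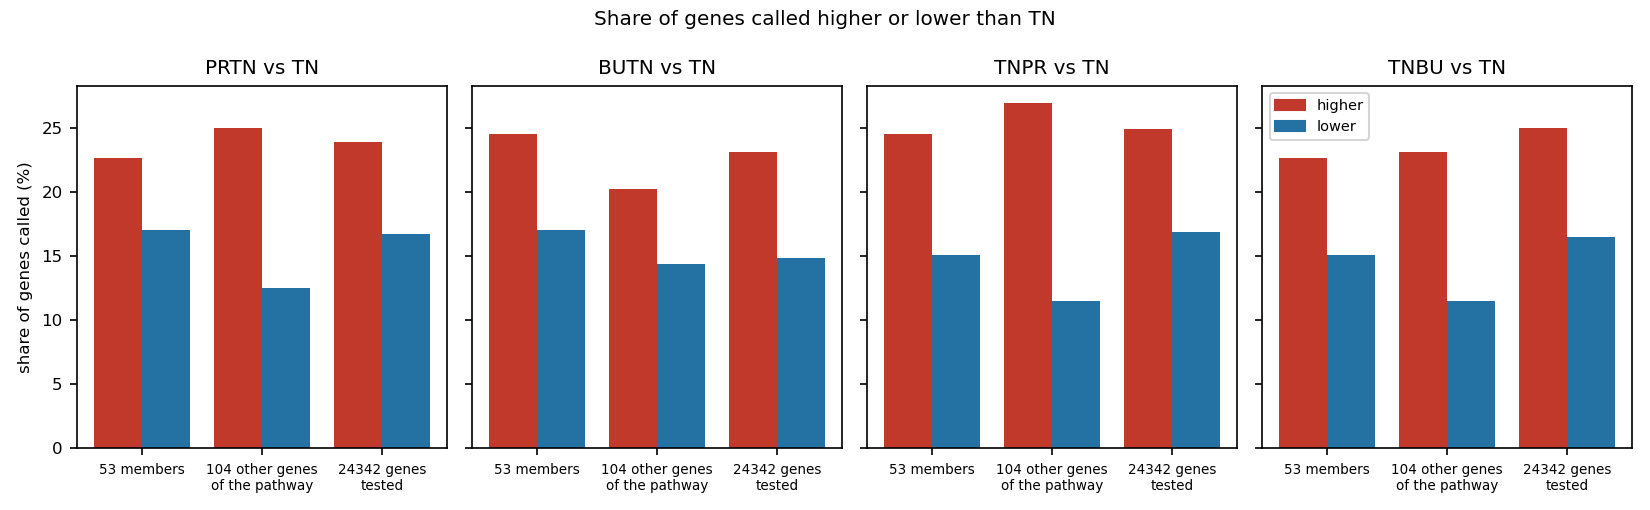
Bars give the share of genes (%) called higher (red) or lower (blue) than TN for the 53 lysosome and autophagy genes, 104 other genes of the pathway and all 24342 genes tested, in 1 panel per SCFA group. In PRTN the 53 genes stood at 22.6% higher and 17.0% lower, beside 23.9% and 16.7% of all genes.

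What differed was which genes moved. LAMP3, FUCA1, LIPA, GAA, NEU1, CTSB, ATP6V1A, ARSA and SMPD1 were called higher in all 4 SCFA groups, and ARSB, FUCA2, CTSC, CD63, SQSTM1, MITF, NAGLU and HEXA were called lower in all 4. Several of these belong to the same enzyme family with opposite directions. None of the called genes changed sign under any of the alternatives tried.

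**Figure D2:**
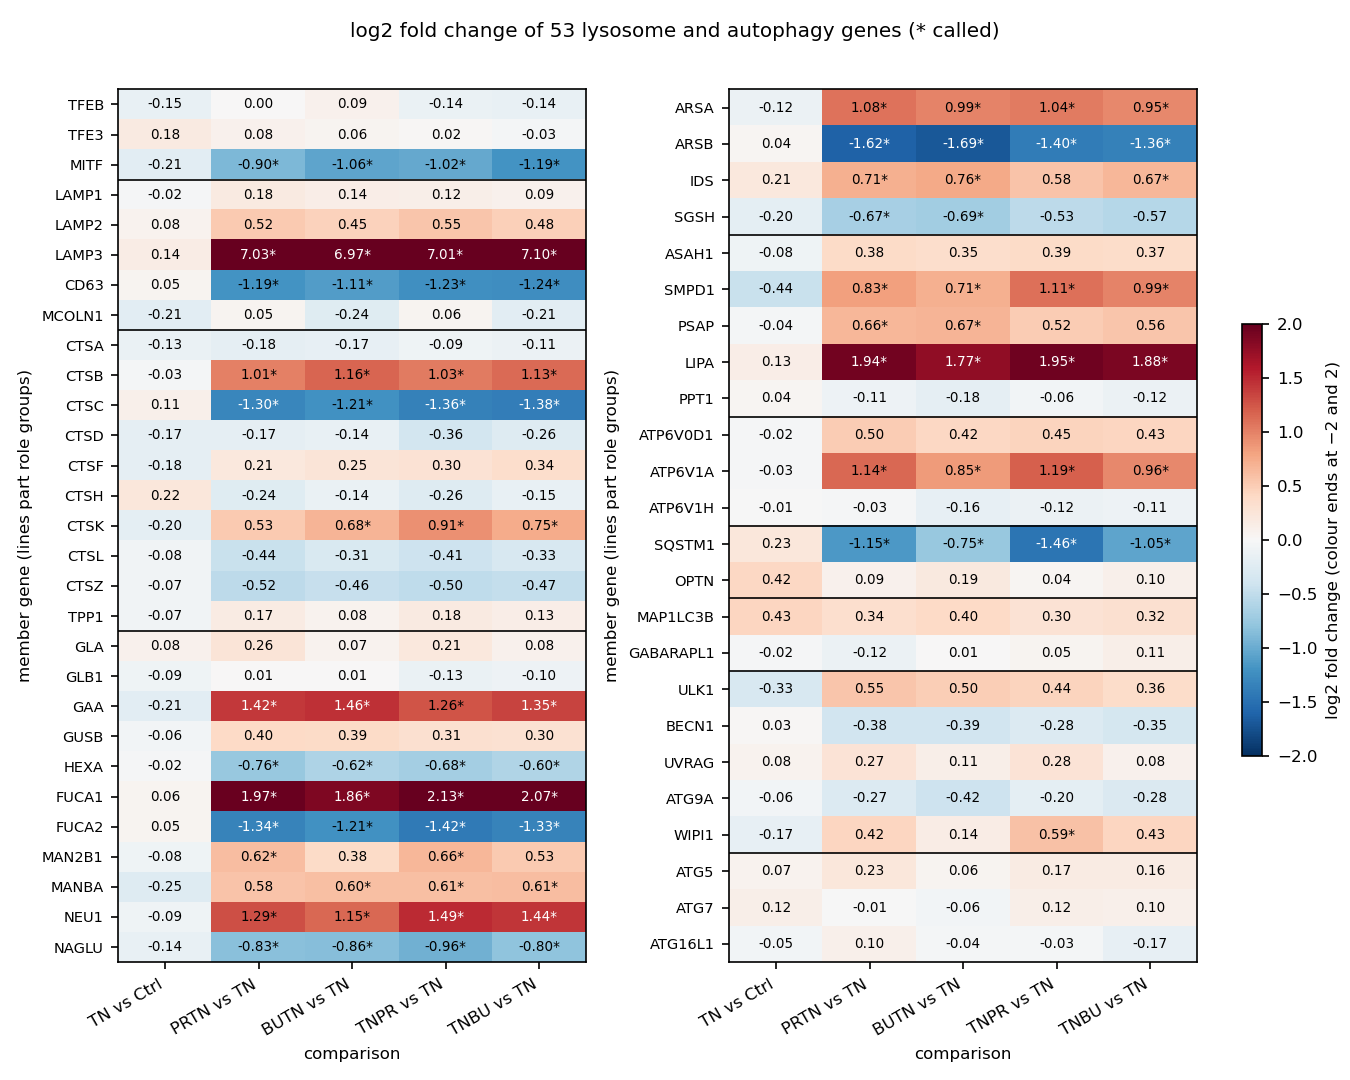
Each cell gives the log2 fold change of 1 of the 53 genes in TN vs Ctrl and in each SCFA group vs TN, coloured from blue (lower) to red (higher) with the colour ending at -2 and 2, and an asterisk marks a call (fold over 1.5, adjusted p under 0.05). The column for TN vs Ctrl holds no call, and the 4 SCFA columns hold 21, 22, 21 and 20.

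Among the transcription factors, MITF was lower in all 4 SCFA groups and TFEB and TFE3 were called in none. MITF (ENSG00000187098.14, chromosome 3, 69739456 to 69968336, GENCODE release 44 on GRCh38) stood at 76.2 and 81.5 CPM in Ctrl, at 70.1 and 66.4 in TN, at 38.0 and 35.0 in PRTN, at 32.9 and 32.5 in BUTN, at 36.3 and 31.0 in TNPR, and at 34.2 and 26.2 in TNBU. Every SCFA library lay below every Ctrl and TN library. Against TN its level was 1.87-fold lower in PRTN (log2 -0.90, SE 0.106, adjusted p = 1.18e-05), and the log2 fold changes were -1.06, -1.02 and -1.19 in BUTN, TNPR and TNBU (limma-voom). TFE3 was the most abundant of the family, with mean levels of 126 CPM for Ctrl, 143 for TN, 152 for PRTN, 149 for BUTN, 145 for TNPR and 140.4 for TNBU. Its log2 fold changes against TN lay between -0.03 and 0.08. TFEB stood between 7.52 and 10.4 CPM over the 12 libraries, with log2 fold changes between -0.14 and 0.09.

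Of the membrane proteins, LAMP3 rose from near the limit of detection and CD63 fell, while LAMP1, LAMP2 and MCOLN1 were not called. LAMP3 (ENSG00000078081.7, chromosome 3, 183122215 to 183163839), known as a marker of mature dendritic cells, had 7.07 and 3 counts in Ctrl, 3 and 8 in TN, and between 807 and 919 counts in each of the 8 SCFA libraries. It stood at 0.243 and 0.108 CPM in Ctrl, at 0.112 and 0.287 in TN, at 26.6 and 25.8 in PRTN, at 25.6 and 24.8 in BUTN, at 25.0 and 26.9 in TNPR, and at 28.4 and 26.8 in TNBU. All SCFA libraries lay far above Ctrl and TN, and the range of TNPR overlapped those of PRTN, BUTN and TNBU, which did not overlap one another. With both libraries of a group summed, the ratio of scaled counts to TN was 130.0 in PRTN (95% exact interval 72.7 to 262), 125 in BUTN (69.9 to 252), 129 in TNPR (71.9 to 259) and 137 in TNBU (76.4 to 275), intervals that cover counting error only. The adjusted p was 3.65e-08 in PRTN vs TN (limma-voom) and near that in the other groups. Even so, LAMP3 made up only 3.32% to 3.91% of the summed CPM of LAMP1, LAMP2 and LAMP3 in the SCFA libraries. The leukocyte and macrophage markers given above summed to 1.19 to 1.44 CPM in Ctrl and TN and to 3.32 to 6.70 CPM in the SCFA libraries. How this sum relates to LAMP3 was not tested.

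CD63, a tetraspanin of late endosomes and lysosomes, stood at 399.9 and 376 CPM in Ctrl, at 379 and 429 in TN, at 177 and 175 in PRTN, at 185 and 188 in BUTN, at 169.8 and 175 in TNPR, and at 169 and 172 in TNBU. The 4 SCFA groups lay below Ctrl and TN without overlap. Its level was 2.29-fold lower in PRTN than in TN (log2 -1.19, SE 0.063, adjusted p = 1.19e-08), and the log2 fold changes were -1.11, -1.23 and -1.24 in BUTN, TNPR and TNBU (limma-voom). LAMP1, a heavily glycosylated protein of the lysosomal membrane, had log2 fold changes of 0.18, 0.14, 0.12 and 0.09, the first of which had an adjusted p of 0.0119 (limma-voom). LAMP2, which also takes part in chaperone-mediated autophagy, had log2 fold changes of 0.52, 0.45, 0.55 and 0.48, under the fold threshold in each group, and it passed that threshold in all 4 groups with library size alone as the scaling and in TNPR without TNPR replicate 1 (0.62). MCOLN1, the lysosomal calcium channel whose promoter holds a full palindrome, had log2 fold changes between -0.24 and 0.06.

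**Figure D3:**
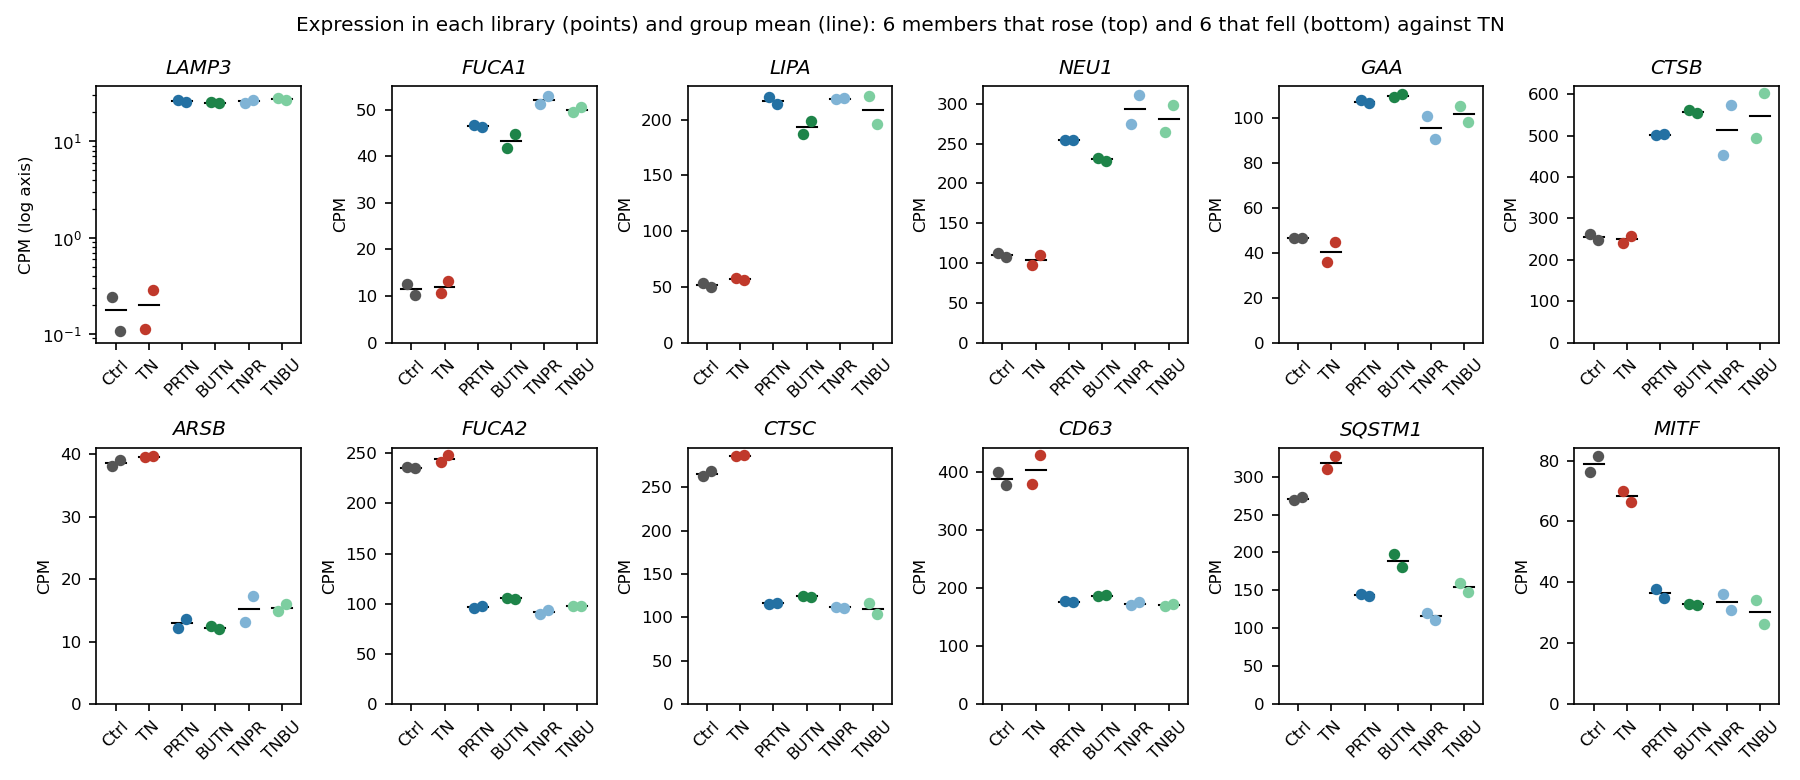
Points give the level (CPM) of each library and lines the group means for 6 genes that rose (top) and 6 that fell (bottom) against TN, with a log axis for LAMP3 and axes from 0 for the others. In each panel the SCFA libraries stand apart from the Ctrl and TN libraries, and for SQSTM1 the BUTN libraries (198 and 180.2 CPM) stand above the PRTN libraries (145 and 142 CPM).

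The 10 lysosomal proteases were divided. CTSB rose and CTSC fell in all 4 SCFA groups, CTSK was called higher in BUTN, TNPR and TNBU, and the other 7 were called in no group. CTSB, a cysteine protease, stood at 263 and 248 CPM in Ctrl, at 241 and 259 in TN, at 501 and 504 in PRTN, at 562 and 554 in BUTN, at 453 and 574 in TNPR, and at 495 and 602 in TNBU. The replicates of TNPR and of TNBU lay far apart, and all of them were above every Ctrl and TN library. The rise was 2.02-fold in PRTN (log2 1.01, SE 0.107, adjusted p = 4.62e-06), with log2 fold changes of 1.16, 1.03 and 1.13 in BUTN, TNPR and TNBU (limma-voom).

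CTSC, the dipeptidyl peptidase that activates serine proteases of immune cells, stood at 262 and 269 CPM in Ctrl, at 286 and 287 in TN, at 116 and 116 in PRTN, at 125 and 124 in BUTN, at 112 and 111 in TNPR, and at 116 and 104 in TNBU. No SCFA library came near Ctrl or TN. Its level was 2.46-fold lower in PRTN (log2 -1.30, SE 0.056, adjusted p = 2.6e-09), and the log2 fold changes were -1.21, -1.36 and -1.38 in BUTN, TNPR and TNBU (limma-voom). CTSK, a protease best known from bone resorption, was a low gene at 3.24 to 7.05 CPM, with log2 fold changes of 0.53, 0.68, 0.91 and 0.75. Its call was lost in BUTN without BUTN replicate 1 or TN replicate 1 (log2 0.60 and 0.63, adjusted p above 0.05) and in TNBU without TNBU replicate 2 (0.52). The 2 most abundant proteases, CTSZ and CTSD, had log2 fold changes of -0.52, -0.46, -0.50 and -0.47 and of -0.17, -0.14, -0.36 and -0.26. CTSL, CTSH, CTSA, CTSF and TPP1 lay between -0.44 and 0.34 in every group.

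Glycosidases, which remove sugars from glycoproteins and glycolipids, were the role with the most genes, and of these 11 genes 4 were called higher and 3 lower in PRTN, BUTN and TNBU and 5 higher and 3 lower in TNPR. FUCA1 (ENSG00000179163.11, chromosome 1, 23845077 to 23868290), the lysosomal α-L-fucosidase, stood at 12.6 and 10.3 CPM in Ctrl, at 10.6 and 13.3 in TN, at 46.8 and 46.2 in PRTN, at 41.7 and 44.8 in BUTN, at 51.3 and 53.0 in TNPR, and at 49.6 and 50.5 in TNBU. All SCFA libraries were above all Ctrl and TN libraries, and TNPR and TNBU did not overlap PRTN or BUTN. The rise over TN was 3.92-fold in PRTN (log2 1.97, SE 0.108, adjusted p = 1.68e-08), with log2 fold changes of 1.86, 2.13 and 2.07 in BUTN, TNPR and TNBU (limma-voom).

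FUCA2, a related fucosidase that is also secreted, moved the other way. It stood at 236 and 235 CPM in Ctrl, at 242 and 248 in TN, at 96.0 and 97.7 in PRTN, at 106 and 105 in BUTN, at 89.4 and 94.1 in TNPR, and at 97.2 and 97.4 in TNBU, so that it remained the more abundant of the pair in every library. It was 2.53-fold lower in PRTN than in TN (log2 -1.34, SE 0.051, adjusted p = 1.15e-09), and the log2 fold changes were -1.21, -1.42 and -1.33 in BUTN, TNPR and TNBU (limma-voom).

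GAA, the acid α-glucosidase that degrades glycogen, stood at 46.5 CPM in both Ctrl libraries, at 35.9 and 44.7 in TN, at 108 and 107 in PRTN, at 109 and 111 in BUTN, at 101 and 90.8 in TNPR, and at 106 and 98.5 in TNBU. The groups given an SCFA before TNF-α lay above the groups given it afterwards, and all lay above Ctrl and TN. The log2 fold changes against TN were 1.42, 1.46, 1.26 and 1.35 (SE 0.091 in each, adjusted p = 5.76e-08 in PRTN, limma-voom). NEU1, the sialidase that acts in a complex with CTSA, stood at 113 and 108 CPM in Ctrl, at 98.0 and 109.9 in TN, at 255 in both PRTN libraries, at 232 and 228 in BUTN, at 274 and 312 in TNPR, and at 265 and 298 in TNBU. Here the groups given the SCFA after TNF-α were the higher ones. The log2 fold changes were 1.29, 1.15, 1.49 and 1.44 (SE 0.081 in each, adjusted p = 4.94e-08 in PRTN, limma-voom).

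HEXA, the α subunit of β-hexosaminidase, and NAGLU, which degrades heparan sulfate, were lower in all 4 groups. Their log2 fold changes were -0.76, -0.62, -0.68 and -0.60 for HEXA and -0.83, -0.86, -0.96 and -0.80 for NAGLU. HEXA was close to the fold threshold, and its call in TNBU was lost without TN replicate 2 or TNBU replicate 2, at log2 -0.57 in each case. That call was also lost with DESeq2 and with relative log expression size factors, at -0.58 in each case. With library size alone as the scaling, HEXA was no longer called in BUTN, TNPR or TNBU (-0.47, -0.51 and -0.40). The mannosidases were near the threshold from above. MAN2B1 was called higher in PRTN and TNPR (log2 0.62 and 0.66), and without TN replicate 1 its values were 0.48 and 0.53, under the threshold. Its value in PRTN was also under the threshold, at 0.58, without TNPR replicate 1, without TNBU replicate 1 or with the edgeR default filter. Its value in TNBU passed the threshold without TN replicate 2 (0.62) and with library size alone as the scaling (0.72). MANBA was called in BUTN, TNPR and TNBU at 0.60 to 0.61. In BUTN it fell under the threshold, at 0.57 to 0.58, without BUTN replicate 2, either TN replicate, TNBU replicate 1 or TNPR replicate 1. In TNPR it did so, at 0.55 to 0.58, without BUTN replicate 1, either TN replicate, TNBU replicate 1 or TNPR replicate 1. In TNBU it did so without TNBU replicate 1 (0.53) or TNPR replicate 1 (0.58). GLA, GLB1 and GUSB lay between -0.13 and 0.40.

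All 4 sulfatases were called in PRTN and in BUTN, ARSA and IDS higher and ARSB and SGSH lower. ARSA, the sulfatase that degrades sulfatide, stood at 26.4 and 25.7 CPM in Ctrl, at 22.0 and 26 in TN, at 49.0 and 52.2 in PRTN, at 48.5 and 46.6 in BUTN, at 48.7 and 49.4 in TNPR, and at 44.6 and 48.1 in TNBU. ARSB, which removes sulfate from dermatan and chondroitin sulfate, stood at 38.1 and 39.0 CPM in Ctrl, at 39.5 and 39.7 in TN, at 12.2 and 13.7 in PRTN, at 12.5 and 11.9 in BUTN, at 13.1 and 17.3 in TNPR, and at 14.8 and 16.0 in TNBU. The SCFA libraries were thus the high ones for ARSA and the low ones for ARSB, with no overlap for either. The log2 fold changes were 1.08, 0.99, 1.04 and 0.95 for ARSA (SE 0.084 in PRTN, adjusted p = 2.94e-07) and -1.62, -1.69, -1.40 and -1.36 for ARSB (SE 0.111 in PRTN, adjusted p = 1.06e-07, limma-voom).

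IDS, the iduronate sulfatase, had log2 fold changes of 0.71, 0.76, 0.58 and 0.67, the third of which was under the fold threshold, and its value in TNBU was 0.51 without TNBU replicate 1. Reads of IDS are hard to tell from those of the pseudogene IDSP1. SGSH, the heparan sulfatase, had log2 fold changes of -0.67, -0.69, -0.53 and -0.57. With library size alone as the scaling, SGSH stood at -0.51 in PRTN and -0.54 in BUTN and was no longer called there. It passed the threshold in TNPR without TN replicate 1 or TNPR replicate 1 (-0.61 and -0.67), and in TNBU without BUTN replicate 1, TN replicate 1, TNPR replicate 1 or TNBU replicate 2 (-0.65 to -0.59).

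Ratios between related enzymes within a library do not depend on how libraries are scaled. FUCA1 over FUCA2 was 0.0436 to 0.0536 in the Ctrl and TN libraries and 0.393 to 0.573 in the SCFA libraries. ARSA over ARSB was 0.557 to 0.693 in Ctrl and TN and 2.85 to 4.02 in the SCFA libraries. CTSB over CTSC was 0.841 to 1.00 in Ctrl and TN and 4.04 to 5.78 in the SCFA libraries. No ratio overlapped between the 4 Ctrl and TN libraries and the 8 SCFA libraries. These pairs were put together after their values were seen. Each sets a gene called higher in all 4 SCFA groups over a gene called lower in all 4. The separation thus followed from the choice of pairs and adds nothing to the values of the single genes.

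**Figure D4:**
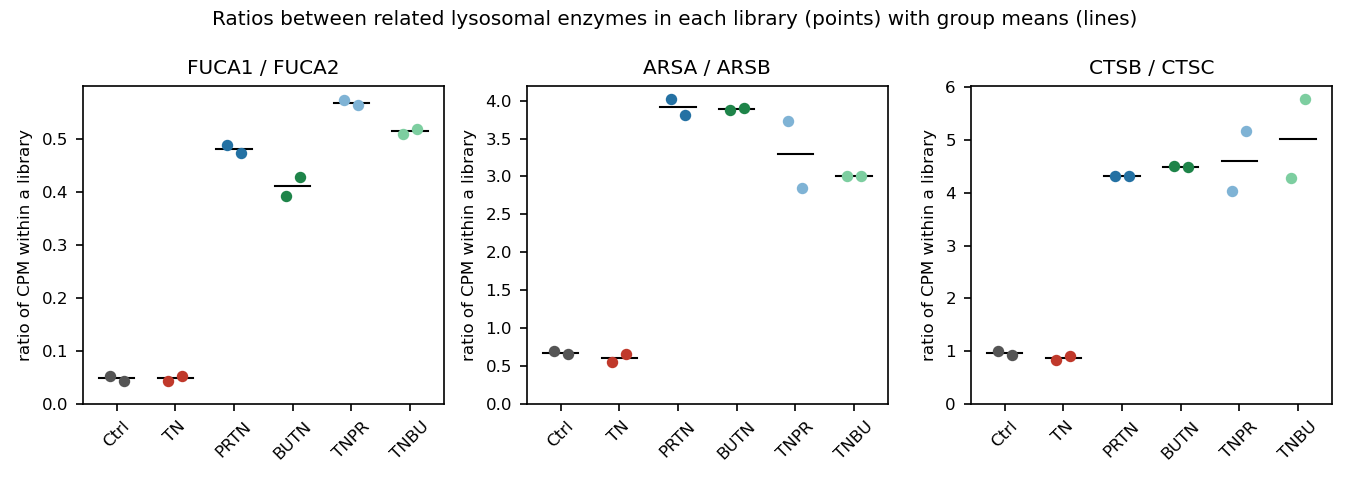
Points give the ratio of CPM between related enzymes within each library, by group on the horizontal axis, and lines give group means. FUCA1 over FUCA2, ARSA over ARSB and CTSB over CTSC were all higher in the SCFA libraries, and for CTSB over CTSC the replicates lay farthest apart in TNPR and TNBU.

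Of the 5 genes that act on lipids, LIPA and SMPD1 rose in all 4 groups, PSAP was called higher in PRTN and BUTN, and ASAH1 and PPT1 were not called. LIPA (ENSG00000107798.17, chromosome 10, 89213569 to 89414557), the acid lipase that frees cholesterol from its esters, stood at 53.6 and 49.8 CPM in Ctrl, at 57.6 and 55.9 in TN, at 220.3 and 214 in PRTN, at 187 and 199 in BUTN, at 218 and 219 in TNPR, and at 222 and 197 in TNBU. All SCFA libraries lay far above the Ctrl and TN libraries, and BUTN was the lowest of the SCFA groups by its mean. The rise was 3.83-fold in PRTN (log2 1.94, SE 0.071, adjusted p = 8.27e-10), with log2 fold changes of 1.77, 1.95 and 1.88 in BUTN, TNPR and TNBU (limma-voom). In GENCODE release 44, exons of LIPA overlap exons of IFIT2 and IFIT3 on the other strand, and the strand setting of the counting is not given in the sources used here.

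SMPD1 stood at 14.8 and 13.4 CPM in Ctrl, at 10.2 and 10.4 in TN, at 18.6 and 18.1 in PRTN, at 16.2 and 17.5 in BUTN, at 21.0 and 23.7 in TNPR, and at 19.0 and 22.2 in TNBU. TN was the lowest group and TNPR the highest by their means. The log2 fold changes against TN were 0.83, 0.71, 1.11 and 0.99 (SE 0.111 in PRTN, adjusted p = 3.76e-05, limma-voom). PSAP was the most abundant of the 53 genes, at 1291 and 1281 CPM in Ctrl, at 1182 and 1329 in TN, at 1986 and 1971 in PRTN, at 1986 and 2009 in BUTN, at 1817 and 1767 in TNPR, and at 1956 and 1752 in TNBU. Its SCFA libraries all lay above Ctrl and TN, with log2 fold changes of 0.66, 0.67, 0.52 and 0.56 (adjusted p = 1.44e-06 in PRTN, limma-voom). Without TN replicate 1, the lower of the TN libraries, PSAP stood at 0.55 in PRTN and 0.56 in BUTN, under the fold threshold, and it passed the threshold in TNBU without TN replicate 2 or TNBU replicate 2 (0.63 and 0.64).

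Of the 3 V-ATPase subunits, ATP6V1A, which holds the catalytic site, rose in all 4 groups. It stood at 66.1 and 69.2 CPM in Ctrl, at 66.2 and 66.4 in TN, at 148 and 145 in PRTN, at 118 and 121 in BUTN, at 149 and 154 in TNPR, and at 138 and 121 in TNBU. The propionate groups were above the butyrate groups. The log2 fold changes were 1.14, 0.85, 1.19 and 0.96 (SE 0.067 in PRTN, adjusted p = 2.87e-08, limma-voom). ATP6V0D1, a subunit of the membrane sector, had log2 fold changes of 0.50, 0.42, 0.45 and 0.43, under the fold threshold, and ATP6V1H, a regulatory subunit, lay between -0.16 and -0.03.

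Among the 12 autophagy genes, SQSTM1 was the one with a call in every SCFA group. SQSTM1 (ENSG00000161011.19, chromosome 5, 179806398 to 179838078), the receptor that carries ubiquitinated cargo to autophagosomes and is itself degraded there, stood at 269.7 and 273 CPM in Ctrl, at 309.7 and 328 in TN, at 145 and 142 in PRTN, at 198 and 180.2 in BUTN, at 121 and 111 in TNPR, and at 160.3 and 148 in TNBU. The 4 SCFA groups were below Ctrl as well as below TN, and no SCFA group overlapped another, in the order BUTN, TNBU, PRTN and TNPR from high to low. Its level was 2.22-fold lower in PRTN (log2 -1.15, SE 0.066, adjusted p = 2.3e-08), 1.69-fold in BUTN (log2 -0.75, SE 0.065, adjusted p = 8.99e-07), 2.76-fold in TNPR (log2 -1.46, SE 0.067, adjusted p = 3.94e-09) and 2.07-fold in TNBU (log2 -1.05, SE 0.066, adjusted p = 5.64e-08, limma-voom). Exons of SQSTM1 overlap exons of MRNIP and MGAT4B on the other strand.

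Of the remaining autophagy genes, only WIPI1 was called, and only in TNPR. By the adjusted p alone (under 0.05, limma-voom), MAP1LC3B, ULK1, BECN1, ATG9A, WIPI1, UVRAG and ATG5 differed between PRTN and TN. OPTN, GABARAPL1, ATG7 and ATG16L1 did not. OPTN kept log2 fold changes between 0.04 and 0.19 against TN. MAP1LC3B had values of 0.34, 0.40, 0.30 and 0.32 and GABARAPL1, another LC3-like protein, of -0.12 to 0.11. Of the genes that start autophagosome formation, WIPI1, which binds phosphatidylinositol 3-phosphate, was called higher in TNPR (log2 0.59, adjusted p = 0.000671, limma-voom) and fell under the fold threshold without TNPR replicate 2 (0.46), TN replicate 1 (0.52), TNBU replicate 1 (0.54) or BUTN replicate 1 (0.57). ULK1 had log2 fold changes of 0.55, 0.50, 0.44 and 0.36, BECN1, part of the lipid kinase complex, of -0.38, -0.39, -0.28 and -0.35, ATG9A, which delivers membrane, of -0.27, -0.42, -0.20 and -0.28, and UVRAG lay between 0.08 and 0.28. The conjugation genes ATG5, ATG7 and ATG16L1, needed to attach LC3 to lipid, lay between -0.17 and 0.23 in all groups. With library size alone as the scaling, ULK1 passed the fold threshold in PRTN, BUTN and TNPR at 0.71, 0.65 and 0.62, and with the TMM factors it passed in PRTN without PRTN replicate 1 or TN replicate 2 (0.61 and 0.60).

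Propionate and butyrate were then compared directly, and so were the earlier and later additions. The doses differ (15 mM and 3 mM), so these contrasts compare treatments as given and not equal doses. In PRTN vs BUTN, 0 of the 53 genes were called (0.168% of all genes were), and in TNPR vs TNBU 0 were called (0.00822% of all genes), with limma-voom, edgeR and DESeq2. Unadjusted p was under 0.05 for 11 and for 4 of the 53 genes, beside 3418 and 2096 of the 24342 genes tested (limma-voom). By adjusted p alone, SQSTM1 was the single gene that differed between PRTN and BUTN (0.575% of all genes did), being lower with propionate at log2 -0.40 (95% interval -0.54 to -0.25, adjusted p = 0.0283, limma-voom). Its value in TNPR vs TNBU was -0.41 (95% interval -0.56 to -0.26, adjusted p = 0.122, limma-voom). Over all alternatives that value ran from -0.49 to -0.35, and its adjusted p from 3.91e-05 (DESeq2) to 0.998. By the adjusted p alone, 0 of the 53 genes differed in TNPR vs TNBU, where 0.0205% of all genes did.

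The adjusted p of SQSTM1 in PRTN vs BUTN rose above 0.05 when any 1 of 7 libraries was left out. It was 0.304 and 0.229 without PRTN replicates 1 and 2, 0.345 and 0.147 without BUTN replicates 1 and 2, 0.0656 and 0.0653 without Ctrl replicates 1 and 2, and 0.0522 without TN replicate 2. The difference itself stayed between -0.46 and -0.33. ATP6V1A was next, higher with propionate by log2 0.30 in PRTN vs BUTN (95% interval 0.16 to 0.44, adjusted p = 0.0619) and by 0.23 in TNPR vs TNBU (0.09 to 0.37, adjusted p = 0.365, limma-voom). Over the 53 genes the differences ran from -0.40 to 0.30 and from -0.41 to 0.27, and the plot of both contrasts shows the 95% interval of each gene. These intervals bound how far the treatments differed and do not show that they acted alike.

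**Figure D5:**
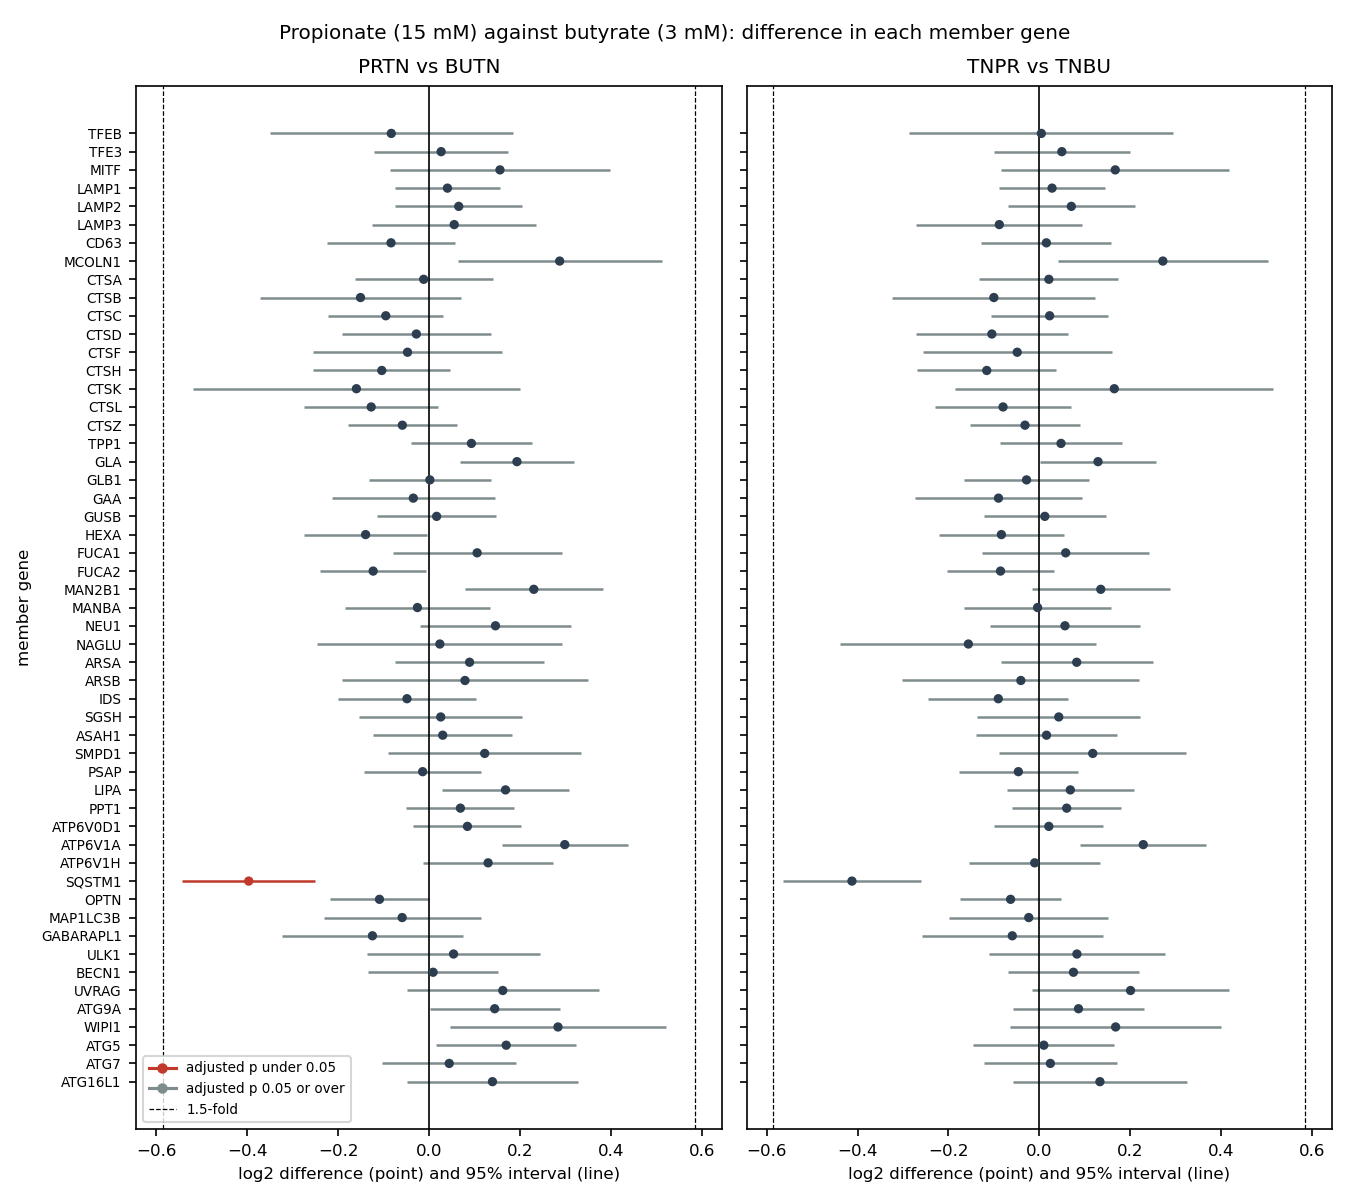
Points give the log2 difference between propionate (15 mM) and butyrate (3 mM) for each of the 53 genes, given before (left) or after (right) TNF-α, with 95% intervals as lines and dashed lines at a 1.5-fold difference. SQSTM1 at -0.40 on the left is the gene with an adjusted p under 0.05 (red).

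TNPR vs PRTN and TNBU vs BUTN compare SCFA after with SCFA before TNF-α and also differ in the time between TNF-α and collection. In these, 0 and 0 of the 53 genes were called (0.16% and 0.267% of all genes) with limma-voom, edgeR and DESeq2. Unadjusted p was under 0.05 for 6 and 8 of the 53 genes, beside 2729 and 3515 of the 24342 genes tested (limma-voom). By the adjusted p alone the counts were 0 as well, where 0.263% and 0.781% of all genes differed. The smallest adjusted p was again that of SQSTM1, lower after than before at log2 -0.31 (95% interval -0.46 to -0.16, adjusted p = 0.123) for propionate and at -0.30 (-0.44 to -0.15, adjusted p = 0.0689, limma-voom) for butyrate. NEU1 stood at 0.20 (0.03 to 0.36) and 0.29 (0.12 to 0.45). For the difference of these differences, 0 of the 53 genes were called (0% of all genes). Unadjusted p was under 0.05 for 0 of them, beside 935 of the 24342 genes tested (limma-voom).

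A further list held 106 genes of the same pathways, of which 104 could be tested. GALC and MAP1LC3A were too low. In TN vs Ctrl, 0 of the 104 were called. Against TN, 26 were higher and 13 lower in PRTN, 21 higher and 15 lower in BUTN, 28 higher and 12 lower in TNPR, and 24 higher and 12 lower in TNBU. The shares higher were 25%, 20.2%, 26.9% and 23.1%, beside the 23.9%, 23.1%, 24.9% and 25% of all genes given above. The shares lower were 12.5%, 14.4%, 11.5% and 11.5%, beside the 16.7%, 14.8%, 16.9% and 16.5% of all genes. In BUTN these shares were nearly equal, and the gap in the other groups was not tested. The genes named here are those with the largest median change of their list over the 4 groups.

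Among other lysosomal enzymes, LGMN, an asparaginyl endopeptidase that matures cathepsins, rose from 56.4 and 64.6 CPM in TN to between 145 and 180.0 CPM in the SCFA libraries, and GM2A, the activator protein of HEXA, rose with log2 fold changes of 1.19, 1.07, 1.43 and 1.44. CTSS, the cathepsin of antigen presentation, stood at 136 and 134 CPM in Ctrl, at 183 and 186 in TN and between 23.5 and 36.0 in the SCFA libraries (log2 -2.92, -2.90, -2.46 and -2.58, adjusted p = 7.66e-11 in PRTN, limma-voom). CTSO fell from 10.5 and 9.37 CPM in TN to between 1.16 and 2.02 CPM. The V-ATPase lists held both directions too, with ATP6V0E2 at 1.44, 1.29, 1.36 and 1.41, and with ATP6V0A1 at 1.16, 1.03, 1.24 and 1.08 but its paralog ATP6V0A2 at -0.83, -1.08, -0.90 and -1.07. Among genes that govern mTORC1 at the lysosome, DEPTOR, an inhibitor of mTOR, rose from 0.261 and 0.287 CPM in TN to between 2.10 and 3.35 CPM, while RRAGB (-1.35, -0.96, -1.35 and -1.11) and FNIP1 (-1.13, -1.05, -1.16 and -1.20) fell.

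In autophagy, ATG4A, a protease that processes LC3-like proteins, had log2 fold changes of 1.79, 1.51, 1.98 and 1.65, GABARAPL2, of the LC3 family, of 1.14, 0.88, 1.32 and 1.17, and CALCOCO2, a receptor for invading bacteria and damaged organelles, of 0.66, 0.66, 0.64 and 0.62. In the fusion of autophagosomes with lysosomes, TECPR1 (1.38, 1.25, 1.55 and 1.38) and the SNARE protein SNAP29 (1.11, 0.86, 1.11 and 0.99) rose, and VPS33A (-1.31, -1.05, -1.21 and -1.18) fell. In the sorting of enzymes to the lysosome, SORT1, a receptor that carries hydrolases and PSAP, rose (1.28, 1.05, 1.22 and 1.12), and NAGPA, which uncovers the mannose 6-phosphate tag, fell (-1.42, -1.37, -1.26 and -1.24). Each of these genes was called in all 4 SCFA groups by limma-voom.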

How the data were processed

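RNA from HK2 cells was sequenced as stranded polyadenylated libraries, which the authors aligned to GRCh38 with STAR (2.6.1a in the submitters' processing notes, which also name FastQC 0.11.5) and quantified with RSEM on GENCODE release 26. The deposited tables hold expected counts for each gene, neither scaled nor filtered, of which 19.3% were not whole numbers because RSEM divides reads that match several genes. The RSEM version and strand setting are not given in the sources used here. Groups came from the label of each library.

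Following the study's methods, genes whose geometric mean of the expected count fell below 1 were left out (computed after adding 1 to every count, then subtracting it), leaving 24342 of 58278 genes. Counts were scaled with TMM factors (0.913 to 1.06, edgeR 4.0.16) and tested unrounded with limma-voom (limma 3.58.1, R 4.3.3), with a mean per group over all 12 libraries and Benjamini-Hochberg adjustment over all tested genes. Calls needed a fold over 1.5 and an adjusted p under 0.05. With 2 libraries a group, each p-value of this fit rests on 1 spread per gene, shared by all 12 libraries and moderated across genes. It is not the spread of the compared libraries alone. The median absolute log2 difference between replicates over the 53 genes was 0.0301 to 0.0777 in Ctrl, TN, PRTN and BUTN. In TNPR and TNBU it was 0.107 to 0.110, so the shared spread joins groups of unequal spread. No pair of replicates agreed within sampling noise (chi-square per gene 3.17 to 18.1). CPM used the same TMM factors, and a ratio interval is an exact 95% interval of counts. Positions and exon overlaps are those of GENCODE release 44, whose identifiers matched all 53 genes, of which 13 have exons that overlap an exon of a protein-coding gene.

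Counts for the 24342 genes were simulated with 200 genes changed in TN vs Ctrl, all drawn from genes with a mean over 1 CPM. On these, limma-voom called 83% of 2-fold and 95% of 4-fold changes with 9 false calls. The edgeR quasi-likelihood test called 85% and 96% with 10, and DESeq2 1.42.0 84% and 96% with 9, the last 2 on rounded counts. Same-numbered replicates were not treated as pairs. Alternatives were edgeR and DESeq2, other scalings, other filters, a replicate block, fits of only the groups compared, other fold thresholds and leaving out each library.

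The members, the role groups and the lists of further and marker genes were chosen with earlier results of these data known. Full values are given for TFEB, TFE3 and MITF, the 5 largest rises and falls among called members without overlap in each comparison with TN, the most abundant member of each role, and the members of smallest adjusted p between SCFA groups; others complete a role. Further pathway genes were named by the largest median change of their list.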

Additional observations from a re-analysis of the deposited data

Results flagged for a closer look

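SQSTM1 was picked out because it was the single one of the 53 genes that differed between the compounds in PRTN vs BUTN by a test of the difference itself. In PRTN vs BUTN its log2 difference was -0.40, with a 95% interval of -0.54 to -0.25 and an adjusted p of 0.0283 by limma-voom, which is under 1.5-fold. Both PRTN libraries lay below both BUTN libraries. Such a separation, in either direction, was found for 38 of the 53 genes in this contrast, a share not counted over all genes. That adjusted p rose above 0.05 when any 1 of 7 libraries was left out, reaching 0.345 without BUTN replicate 1, and in TNPR vs TNBU the difference was -0.41 with an adjusted p of 0.122 (limma-voom). The doses were 15 mM propionate and 3 mM butyrate, and the part of the dose in the difference was not tested.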

How the results depend on the processing

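With the fold threshold dropped and the adjusted p kept, the counts of the 53 genes rose to 2 higher in TN vs Ctrl, 26 higher and 15 lower in PRTN, 23 higher and 14 lower in BUTN, 25 higher and 15 lower in TNPR, and 22 higher and 14 lower in TNBU (all vs TN), and to 1 in PRTN vs BUTN. Of all genes, 3.51% then differed in TN vs Ctrl and 0.575% in PRTN vs BUTN. In PRTN, BUTN, TNPR and TNBU vs TN, 56.4%, 55.1%, 57.7% and 57.4% of all genes did. With a fold over 2 the counts of the 53 genes fell to 8 higher and 5 lower in PRTN, 6 higher and 5 lower in BUTN, 9 higher and 6 lower in TNPR, and 6 higher and 6 lower in TNBU. At that threshold 18.4%, 18%, 19.4% and 19.6% of all genes were higher and 9.17%, 7.44%, 9.41% and 8.79% lower. Leaving out each library in turn gave 10 to 13 higher and 9 lower in PRTN, 10 to 13 higher and 9 lower in BUTN, 10 to 13 higher and 8 to 9 lower in TNPR, and 10 to 14 higher and 7 to 9 lower in TNBU. Of the members called, 18 of 21 kept their call in PRTN, 17 of 22 in BUTN, 17 of 21 in TNPR and 16 of 20 in TNBU over every tool, scaling, filter, block and left-out library, with 0 reversed. The calls lost were those of MAN2B1, PSAP and SGSH in PRTN, CTSK, HEXA, MANBA, PSAP and SGSH in BUTN, HEXA, MAN2B1, MANBA and WIPI1 in TNPR, and CTSK, HEXA, IDS and MANBA in TNBU, and the cause was not tested. With the replicate block the counts were 12 higher and 9 lower in PRTN, 13 higher and 9 lower in BUTN, 13 higher and 8 lower in TNPR, and 12 higher and 8 lower in TNBU, as without it. Deviations of same-numbered libraries correlated from -0.0791 to 0.240 over 15 pairs of groups, with 1 over 0.1. Same-numbered libraries thus shared little in most pairs of groups. The source of the correlation of 0.240 in the 1 pair of groups was not tested. The difference of SQSTM1 by adjusted p alone in PRTN vs BUTN was -0.46 to -0.33 over all alternatives, with adjusted p from 3.05e-05 to 0.345. The simulated counts covered changes of 2-fold and 4-fold in TN vs Ctrl. The power to see smaller differences, changes of genes with a lower level, or differences in or between SCFA groups was thus not measured.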
